A study of Homo sapiens with 12 samples.

Results

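The mRNAs examined were the 7 complex I subunits that the human mitochondrial genome encodes, MT-ND1, MT-ND2, MT-ND3, MT-ND4, MT-ND4L, MT-ND5 and MT-ND6, called ND genes here. They were chosen by gene name, with earlier results of these data known, and are 7 of the 32077 genes in the count table. RNA-seq was carried out on PC3 and DU145 cells, both labelled wild type, which are established prostate cancer lines that grow without androgen. Each line was kept for 48 hours with vehicle or with 2.5 μmol/L pentamidine, an antiprotozoal diamidine, at 1000000 cells per well. The 4 groups (PC3 vehicle, PC3 pentamidine, DU145 vehicle and DU145 pentamidine) held 3 samples each, 12 in all. The labels do not say whether the 3 samples of a group were separate cultures, so p-values measure only the spread between these samples, which may be technical.

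Complex I is the first enzyme of the respiratory chain. It takes electrons from NADH, passes them to ubiquinone and pumps protons across the inner membrane. Its matrix arm is made of nuclear-encoded proteins, whereas the 7 ND proteins form the core of the membrane arm. ND1 sits where both arms meet and lines the ubiquinone site. ND2, ND4 and ND5 are the large subunits related to sodium/proton antiporters, and ND3, ND4L and ND6 are small subunits that lie between them and ND1. All ND genes except MT-ND6 are read from the heavy strand as part of 1 long transcript that is cut at the tRNAs. MT-ND6 is the single mRNA read from the light strand, and its mRNA is known to lack the long poly(A) tail of the others. The libraries were made from RNA captured with Oligo(dT).

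Before the results, the line labels were set against genes known for these lines. CTNNA1, which encodes alpha-catenin and is known to be lost in PC3 cells, was counted in the vehicle libraries labelled PC3 at 435 to 444 CPM (the count scaled to a library total of 1000000). This was above its level in the DU145 vehicle libraries, which was 392 to 414 CPM. EPCAM, an epithelial surface marker, did not exceed 0.145 CPM in any of the 12 libraries. KRT8, an epithelial keratin, lay at 18.9 to 21.5 CPM in PC3 vehicle and at 2549 to 2715 CPM in DU145 vehicle. The markers therefore do not identify the libraries labelled PC3 as PC3, the EPCAM level does not match an epithelial line in either set, and the names PC3 and DU145 are used below as the labels give them. Total counts were 13514195 to 15131436 per sample. The PC3 vehicle sample 1 stood apart in short genes. Against the other 2 samples of its group its median log2 ratio was -0.33 over 6 genes of up to 500 bases and -0.20 over 247 genes of 500 to 1000 bases. Values of MT-ND3 and MT-ND4L that this sample moves are therefore also given without it.

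The ND genes lie close together on the mitochondrial chromosome, so the ends of the genes are shown here because they decide which reads a counting program can tell apart. In GRCh38 the heavy-strand genes run on the plus strand in the order MT-ND1 (chrMT:3307-4262), MT-ND2 (chrMT:4470-5511), MT-ND3 (chrMT:10059-10404), MT-ND4L (chrMT:10470-10766), MT-ND4 (chrMT:10760-12137) and MT-ND5 (chrMT:12337-14148). MT-ND6 (chrMT:14149-14673) runs on the minus strand. All are single exons without introns. The last 30 bases of each gene are printed 5′ to 3′ on the gene's own strand, from GENCODE release 29, at chrMT:4233-4262, 5482-5511, 10375-10404, 10737-10766, 12108-12137, 14119-14148 and, for MT-ND6, 14149-14178. Capitals mark the stop codon, or the part of it that the gene holds.
MT-ND1: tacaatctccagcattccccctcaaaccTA
MT-ND2: ctatctccccttttatactaataatcttaT
MT-ND3: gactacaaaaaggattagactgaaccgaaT
MT-ND4L: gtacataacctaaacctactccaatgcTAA
MT-ND4: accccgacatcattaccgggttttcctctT
MT-ND5: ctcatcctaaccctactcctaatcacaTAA
MT-ND6: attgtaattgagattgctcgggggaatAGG
In 4 of the 7 (MT-ND1, MT-ND2, MT-ND3 and MT-ND4) the gene holds only the first 1 or 2 bases of a stop codon, which the poly(A) tail is known to complete. MT-ND4L, MT-ND5 and MT-ND6 end in a whole stop codon.

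A pair of these genes overlap and another pair touch. The 7 last bases of MT-ND4L are the 7 first bases of MT-ND4 in another reading frame, and both share 1 mRNA. Below, capitals mark the shared bases, at the end of MT-ND4L (chrMT:10737-10766) and at the start of MT-ND4 (chrMT:10760-10789).
MT-ND4L: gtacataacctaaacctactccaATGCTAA
MT-ND4: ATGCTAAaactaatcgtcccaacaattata
MT-ND5 and MT-ND6 lie end to end on opposite strands with 0 bases between them. Whether reads were counted by strand is not given in the sources used here and the library steps named do not mark strand, so MT-ND6 reads and antisense reads from the MT-ND5 side cannot be told apart. Nuclear copies of the ND genes are a further source of shared reads. Of 35 listed, 2 reached a mean of 10 counts. MTND2P28 (chr1:629640-630683) differs from MT-ND2 at 19 of 1044 aligned bases, an identity of 98.18%, and held 6.19%, 5.80%, 6.31% and 6.39% of the MT-ND2 count in PC3 vehicle, PC3 pentamidine, DU145 vehicle and DU145 pentamidine. The count of MTND2P28 thus kept nearly the same ratio to MT-ND2 in all groups. MTND4P12 on chromosome 5 held at most 0.383% of the MT-ND4 count in any group.

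All 7 ND mRNAs were lower with pentamidine in both lines. In PC3 4.51% (MT-ND3) to 22.8% (MT-ND1) of the vehicle level was kept, and in DU145 2.45% (MT-ND3) to 17.5% (MT-ND1). Each was called lower, which required a log2 fold change under -1 and a Benjamini-Hochberg adjusted p under 0.05 in edgeR's quasi-likelihood test. The share of all tested genes called lower by this rule was 1.31% of 13861 in PC3 and 0.657% of 14313 in DU145. For each ND gene every pentamidine sample lay below every vehicle sample of its line, which held for 27.3% of the tested genes in PC3 and 15.4% in DU145. Ranked by log2 fold change from the lowest, the 7 genes held places 6 to 23 in PC3 and 3 to 22 in DU145. In bulk samples, fewer cells holding an mRNA and less of it per cell cannot be told apart.

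**Figure D1:**
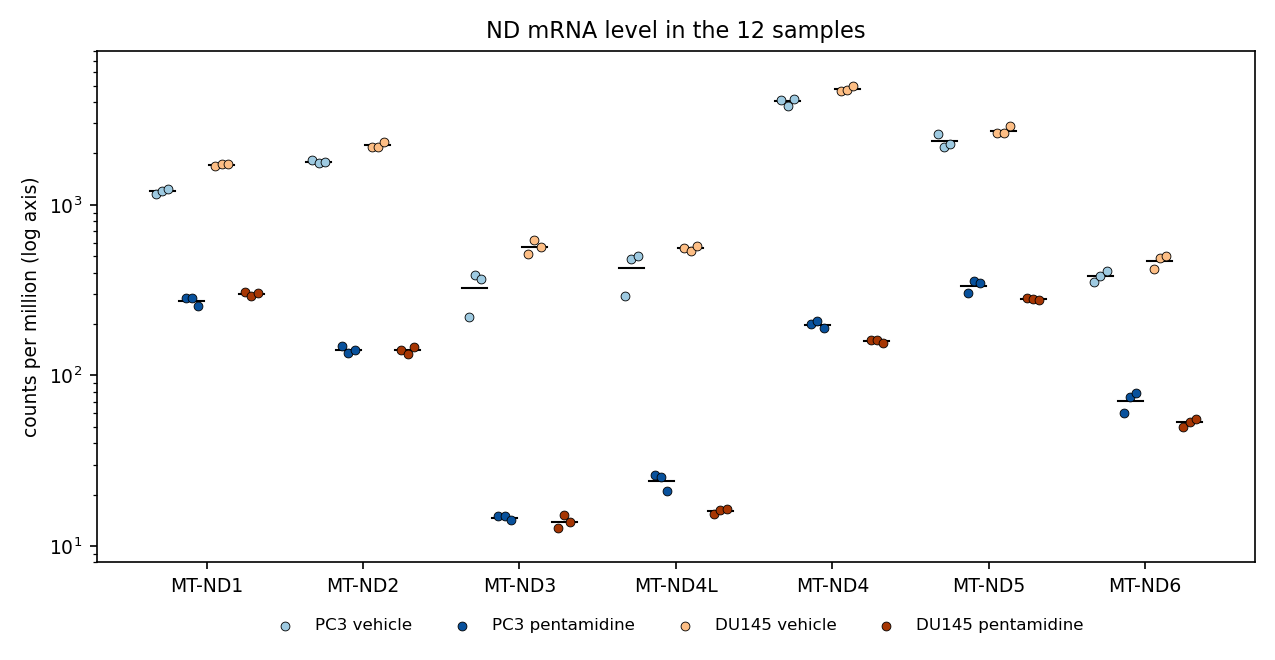
Level of each ND mRNA in CPM, on a log axis, with 1 point per sample (3 per group) and a line at the group mean. The pentamidine points lie below the vehicle points for all 7 genes in both lines, and for MT-ND3 and MT-ND4L 1 of the 3 PC3 vehicle points, sample 1, lies at 220 and 290 CPM, apart from the others.

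MT-ND1, the subunit at the ubiquinone site, was lost least. Its level in the 3 PC3 samples was 1158, 1199 and 1241 CPM with vehicle and 283, 284 and 254 CPM with pentamidine. In DU145 it was 1683, 1740 and 1742 CPM with vehicle and 309, 292 and 305 CPM with pentamidine. The treated samples of the lines lay closer together than the vehicle samples, with DU145 the higher in both. The log2 fold change was -2.11 (SE 0.056, adjusted p 7.3e-15, edgeR) in PC3 and -2.56 (SE 0.032, adjusted p 3.4e-52) in DU145.

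Among the antiporter-like subunits, MT-ND4 lost more than MT-ND2, and MT-ND2 more than MT-ND5. MT-ND4 was at 4137, 3805 and 4184 CPM in PC3 vehicle and at 199, 207 and 189 CPM in PC3 pentamidine. With vehicle in DU145 it was at 4662, 4734 and 4946 CPM and with pentamidine at 160, 162 and 155 CPM. The treated samples lay far below the vehicle samples in both lines, with log2 fold changes of -4.33 (SE 0.060, adjusted p 7.5e-19, edgeR) and -4.96 (SE 0.034, adjusted p 5.3e-64). MT-ND2 was at 1841, 1755 and 1784 CPM in PC3 vehicle and at 149, 135 and 140 CPM in PC3 pentamidine. The DU145 samples had 2177, 2192 and 2323 CPM with vehicle and 142, 133 and 147 CPM with pentamidine. The treated levels of MT-ND2 overlapped between the lines, and its log2 fold changes were -3.65 (SE 0.053) and -4.04 (SE 0.036). MT-ND5 was at 2611, 2183 and 2262 CPM in PC3 vehicle and at 303, 358 and 347 CPM in PC3 pentamidine. In DU145 it was at 2620, 2644 and 2880 CPM with vehicle and at 282, 282 and 277 CPM with pentamidine. MT-ND5, the outermost antiporter-like subunit, thus kept 14.3% and 10.3% of its vehicle level, against 4.91% and 3.33% for MT-ND4.

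Of the small subunits, MT-ND3 and MT-ND4L lost the most and MT-ND6 far less. MT-ND3 was at 220, 389 and 368 CPM in PC3 vehicle and at 14.9, 15.0 and 14.1 CPM in PC3 pentamidine. The DU145 levels were 514, 619 and 564 CPM with vehicle and 12.7, 15.1 and 13.7 CPM with pentamidine. With 176 counts in the lowest treated sample, MT-ND3 was still counted in every library. Its log2 fold changes were -4.46 (SE 0.175, adjusted p 1.6e-12, edgeR) and -5.40 (SE 0.060, adjusted p 1.5e-54). MT-ND4L was at 290, 482 and 499 CPM in PC3 vehicle and at 25.89, 25.48 and 20.96 CPM in PC3 pentamidine. For DU145 it was at 558, 537 and 574 CPM with vehicle and at 15.3, 16.3 and 16.3 CPM with pentamidine. The log2 fold changes of MT-ND4L were -4.12 (SE 0.166, adjusted p 2.4e-12) and -5.17 (SE 0.048, adjusted p 3e-58). The larger SEs of both genes in PC3 go with vehicle sample 1, and without it the changes were -4.68 for MT-ND3 and -4.33 for MT-ND4L.

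MT-ND6, the light-strand mRNA, was at 352, 380 and 411 CPM in PC3 vehicle and at 59.9, 74.6 and 78.3 CPM in PC3 pentamidine. In DU145 it was at 422, 489 and 499 CPM with vehicle and at 50.03, 53.44 and 55.81 CPM with pentamidine. It kept 18.6% and 11.3% of the vehicle level, with log2 fold changes of -2.41 (SE 0.085, adjusted p 3.5e-13, edgeR) and -3.20 (SE 0.048, adjusted p 5.6e-48).

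**Figure D2:**
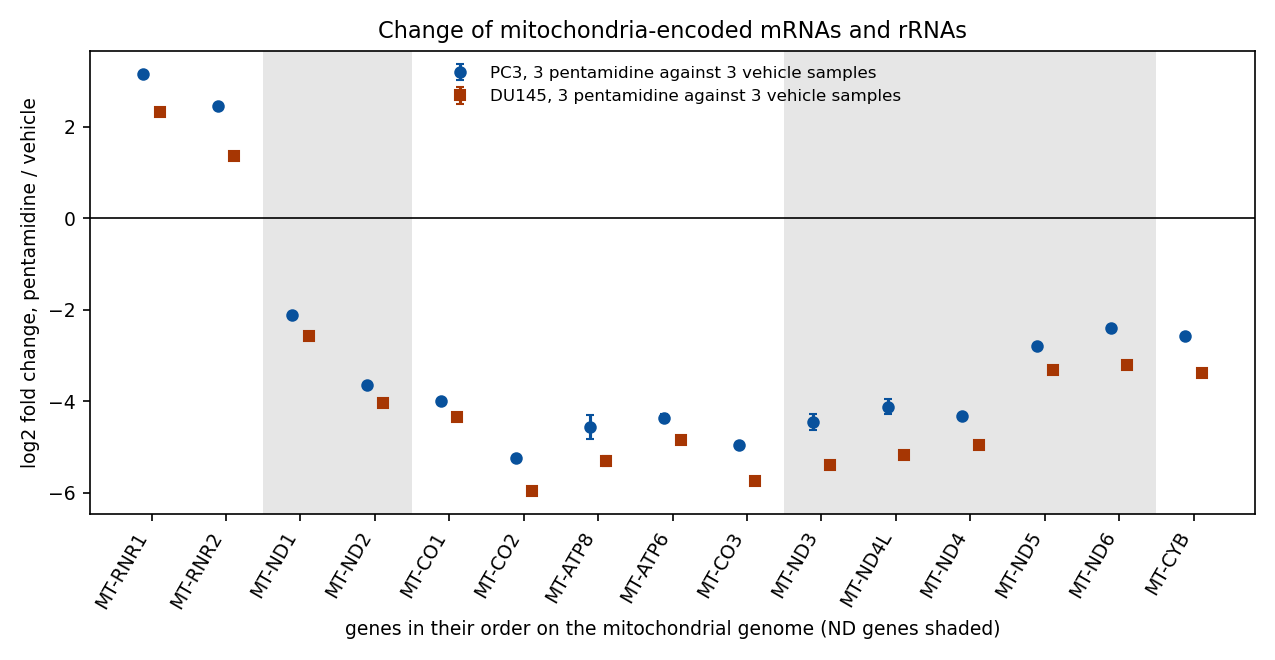
Log2 fold change of pentamidine against vehicle for the 13 mRNAs and 2 rRNAs of the mitochondrial genome, in gene order, with SE bars and the ND genes shaded (circles PC3, squares DU145, 3 samples against 3). The losses of the ND genes ran from -2.11 (MT-ND1) to -4.46 (MT-ND3) in PC3 and from -2.56 to -5.40 in DU145, while both rRNAs lay above 0.

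Along the chromosome the loss followed no single direction. MT-ND1, the first heavy-strand mRNA after the rRNAs, and MT-ND5, the last heavy-strand ND mRNA, were lost less than MT-ND2, MT-ND3, MT-ND4L and MT-ND4 between them. The 2 rRNA genes just before MT-ND1 rose, MT-RNR1 by 8.77-fold in PC3 and 5.18-fold in DU145 and MT-RNR2 by 5.40-fold and 2.66-fold (edgeR, adjusted p of at most 1.8e-17). These rRNA values come from libraries captured with Oligo(dT), and whether capture of the rRNAs changed was not tested. By qPCR the authors report both rRNAs as reduced with pentamidine, the opposite direction to these counts. Over the 6 heavy-strand ND genes, Spearman's correlation of the log2 fold change with the start position was -0.26 in PC3 and -0.20 in DU145.

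Pentamidine is known to bind the minor groove of AT-rich DNA, so the base content of the ND genes was set beside their losses. MT-ND1 had the lowest share of A and T of the 7, 52.3%, and the smallest loss. MT-ND3 had the highest, 59.8%, and the most negative log2 fold change in each line. Over the 6 heavy-strand ND genes Spearman's correlation of the log2 fold change with the share of A and T was -0.77 in PC3 and -0.83 in DU145. With MT-ND6 added it was -0.50 and -0.54 over the 7 ND genes. It was -0.32 and -0.31 over all 12 heavy-strand mRNAs and -0.20 and -0.19 over all 13 mRNAs. Other measures of A and T gave weaker correlations over the 6 heavy-strand ND genes. They were -0.60 and -0.71 for runs of 5 or more A or T bases and -0.43 and -0.26 for AATT sites, both per kb. Spearman's correlation with gene length was 0.31 and 0.54 over the 6 heavy-strand ND genes and 0.57 and 0.61 over the 12 mRNAs. MT-ND6, with 57.3% A and T, lost less than MT-ND4 with 55.7%. These are descriptions over a few genes that share libraries and a transcript, and neither base content nor length was tested as a cause.

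To ask whether ND mRNAs were lost by different amounts, ratios of 2 genes within a sample were compared, which need no library scaling. The change of the log2 ratio, averaged over the lines, was tested by a two-sided exact permutation test with labels permuted within each line, 400 arrangements in all, for which 0.005 is the smallest possible p. The 3 against 3 samples of 1 line alone cannot go below 0.10. Of the 21 pairs, 19 had an adjusted p below 0.05 (Benjamini-Hochberg over the 21 pairs). MT-ND1 rose against MT-ND6, the next least lost, by 0.46 on the log2 scale (0.30 in PC3, where the groups overlapped, and 0.63 in DU145, exact permutation adjusted p 0.0117). MT-ND6 was lost less than MT-ND5, by 0.25 (0.38 in PC3 and 0.13 in DU145, where the groups overlapped, exact permutation adjusted p 0.0117). MT-ND2 was lost more than MT-ND5, by 0.79 (adjusted p 0.007). MT-ND2 was lost less than MT-ND4, by 0.80 (adjusted p 0.007), less than MT-ND3, by 1.06 (adjusted p 0.007), and less than MT-ND4L, by 0.78 (0.43 in PC3, where the groups overlapped, and 1.13 in DU145, adjusted p 0.0166). From least to most lost, the order averaged over the lines was therefore MT-ND1, MT-ND6, MT-ND5, MT-ND2 and then the group of MT-ND4, MT-ND4L and MT-ND3.

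Within that last group the order was settled only in part. MT-ND4, which shares an mRNA with MT-ND4L, did not differ from it beyond the test's threshold, with a change of -0.02 in the log2 ratio (-0.25 in PC3 and 0.21 in DU145, exact permutation adjusted p 0.98). Without PC3 vehicle sample 1 the change was 0.11, with an adjusted p of 0.085. MT-ND3 against MT-ND4 gave -0.26 (adjusted p 0.142), which became -0.40 with an adjusted p of 0.00618 without that sample. MT-ND3 was lost more than MT-ND4L, by a change of -0.28 in the log2 ratio (-0.33 in PC3 and -0.23 in DU145, where the groups overlapped, exact permutation adjusted p 0.0117). MT-ND3 and MT-ND4L are the shortest ND genes, 346 and 297 bases long, and their levels are those in which PC3 vehicle sample 1 lies apart.

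The light-strand mRNA was then set against the heavy-strand ND mRNAs together. The log2 ratio of the MT-ND6 count to the mean of the 6 heavy-strand ND genes was -1.60, -1.68 and -1.61 in PC3 vehicle and -0.73, -0.44 and -0.27 in PC3 pentamidine. In DU145 it was -1.86, -1.70 and -1.71 with vehicle and -0.77, -0.71 and -0.64 with pentamidine. The ratio thus rose in both lines without overlap, by 1.15 and 1.05 on the log2 scale, a mean of 1.10 (exact permutation p 0.005, the smallest possible). The loss of MT-ND6 was nevertheless inside the range of the heavy-strand genes, since MT-ND1 was lost less and MT-ND5 and the other 4 more. Against MT-ND5 alone, its neighbour on the other strand, MT-ND6 rose by 0.38 in PC3 and by 0.13 in DU145, where the groups overlapped (mean 0.25, exact permutation p 0.01). The MT-ND6 count was 13.5% to 18.2% of the MT-ND5 count in PC3 vehicle, 19.8% to 22.6% in PC3 pentamidine, 16.1% to 18.5% in DU145 vehicle and 17.7% to 20.1% in DU145 pentamidine. Reads of the opposite strand counted for MT-ND6, and a change in the capture of an mRNA without a long tail, were not tested.

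**Figure D3:**
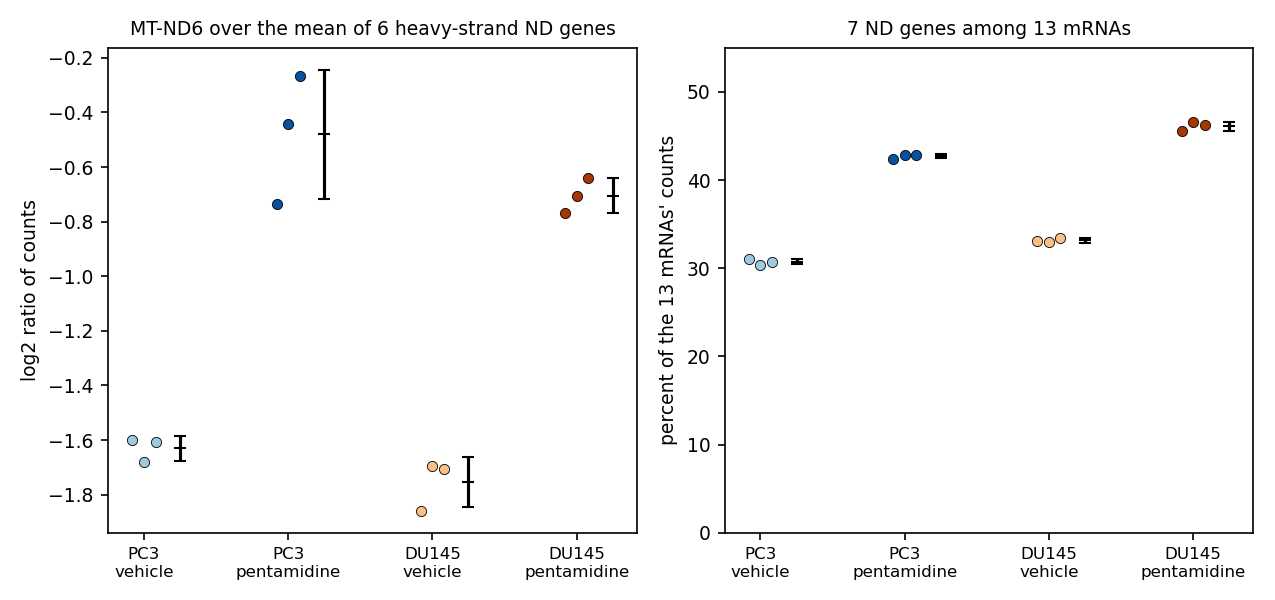
Left, log2 ratio of the MT-ND6 count to the mean of the 6 heavy-strand ND genes; right, the 7 ND genes as a percent of the counts of all 13 mitochondria-encoded mRNAs. Each point is 1 sample and the bars beside them are the mean and SD (n = 3). Both values were higher with pentamidine in each line without overlap, with the left ratio rising by 1.15 and 1.05 and the right share moving from 30.4 to 31.0% up to 42.4 to 42.8% in PC3 and from 33.0 to 33.5% up to 45.5 to 46.6% in DU145.

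The ND mRNAs were next compared with the other 6 mRNAs of the same genome, which encode subunits of complexes III and IV and of ATP synthase. The 7 ND genes held 30.4% to 31.0% of the counts of all 13 mRNAs in PC3 vehicle and 42.4% to 42.8% in PC3 pentamidine. In DU145 they held 33.0% to 33.5% with vehicle and 45.5% to 46.6% with pentamidine. The log2 ratio of summed ND counts to the other 6 rose by 0.75 in PC3 and 0.79 in DU145 (exact permutation p 0.005, the smallest possible), so the ND genes as a sum were lost less. The difference did not hold gene by gene. MT-CYB, a subunit of complex III that lies beyond MT-ND6, kept 16.7% and 9.92% of its vehicle level, more than 5 of the ND genes in PC3 and more than 4 in DU145. The complex IV subunits kept less, with 6.22% and 5.10% for MT-CO1, 3.18% and 1.94% for MT-CO3 and 2.61% and 1.67% for MT-CO2. As a share of all counts in a library, the ND genes fell from 1.02-1.08% to 0.104-0.110% in PC3 and from 1.26-1.35% to 0.0954-0.0971% in DU145.

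The unequal losses changed the make-up of the ND mRNAs. MT-ND4 took 37.3% to 39.0% of the ND counts in PC3 vehicle and 18.1% to 19.2% in PC3 pentamidine. MT-ND1 took 10.9% to 11.8% in PC3 vehicle and 24.3% to 27.4% in PC3 pentamidine. In DU145 MT-ND1 went from 12.9-13.4% to 30.6-31.8% of the ND counts. The share of MT-ND1 was thus higher in every treated sample than in any vehicle sample.

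Levels of different ND genes were compared per kilobase of gene length. This measure does not allow for differences in Oligo(dT) capture or read assignment between genes, which were not tested. MT-ND4L and MT-ND4 share 1 mRNA, yet had 1427 and 2933 CPM per kb in PC3 vehicle and 1874 and 3469 in DU145 vehicle. The order by CPM per kb, also of MT-ND6, is therefore not an order of mRNA amounts. In the vehicle samples MT-ND4 was the highest ND gene, with 2933 ± 149.9 CPM per kb in PC3 and 3469 ± 107.1 in DU145 (SD, n = 3). MT-ND2 came next, with 1721 ± 42.4 and 2141 ± 77.0 CPM per kb. MT-ND6 was the lowest, with 725 ± 56.3 and 895 ± 80.5 CPM per kb. Between them, the samples of neighbouring genes overlapped in PC3 vehicle for MT-ND4L with MT-ND5, MT-ND5 with MT-ND1, and MT-ND3 with MT-ND6. All of these overlaps came from PC3 vehicle sample 1. In the other 2 samples, an alternative added after seeing the data, no neighbours overlapped, MT-ND4L lay at 1624 and 1680 CPM per kb and MT-ND3 at 1064 and 1124, and MT-ND1 came before MT-ND5. In DU145 vehicle they overlapped for MT-ND4L with MT-ND1, MT-ND1 with MT-ND3, and MT-ND3 with MT-ND5. The order of these neighbours in DU145 vehicle is therefore not settled, and that in PC3 vehicle rests on whether sample 1 is used.

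With pentamidine MT-ND1 was the highest, with 286 ± 17.9 CPM per kb in PC3 and 316 ± 9.23 in DU145 (SD, n = 3). MT-ND5 was the next, with 185.5 ± 16.0 and 155 ± 1.56 CPM per kb, and MT-ND3 the lowest, with 42.4 ± 1.34 and 40.0 ± 3.51. In PC3 pentamidine the samples of MT-ND4, MT-ND2 and MT-ND6 overlapped, at means of 144, 136 and 135 CPM per kb. In DU145 pentamidine no neighbouring genes overlapped. The highest ND gene was 4.04 times the lowest in PC3 vehicle and 6.75 times in PC3 pentamidine. In DU145 the span was 3.87 times with vehicle and 7.90 times with pentamidine.

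**Figure D4:**
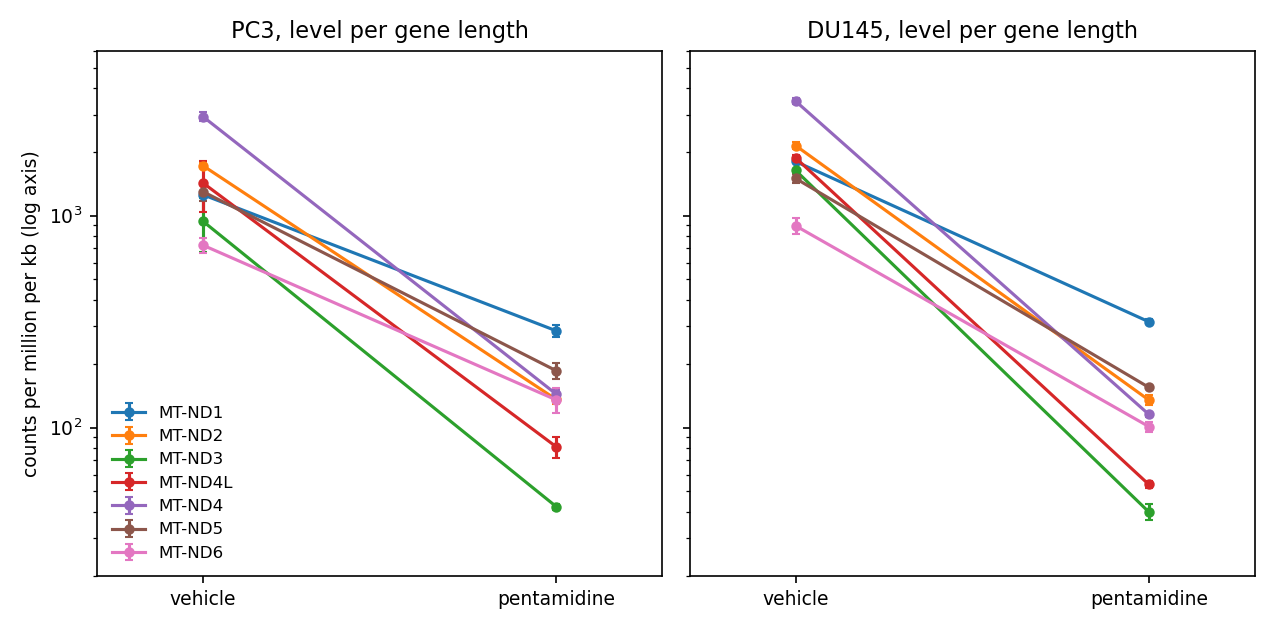
Level of each ND gene in CPM per kb of gene length, on a log axis, as the mean and SD of 3 samples with vehicle and with pentamidine, in PC3 (left) and DU145 (right). The lines cross: MT-ND4 was highest with vehicle (2933 and 3469) and MT-ND1 with pentamidine (286 and 316), while the lowest gene went from MT-ND6 to MT-ND3.

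The lines were then compared with each other. Among the vehicle samples all 7 ND genes were higher in DU145 than in PC3 (edgeR's quasi-likelihood test, Benjamini-Hochberg adjusted p under 0.05), beside 33.8% of all 14394 genes tested. None of the 7 passed a log2 difference of 1. The log2 difference was 0.60 for MT-ND1 (adjusted p 3.8e-09), 0.40 for MT-ND2 (4.2e-07) and 0.88 for MT-ND3 (4e-05). It was 0.32 for MT-ND4, 0.47 for MT-ND4L, 0.29 for MT-ND5 and 0.38 for MT-ND6, with adjusted p of 1e-05, 0.005, 0.00036 and 8.8e-05. Without PC3 vehicle sample 1 the difference was 0.65 for MT-ND3 and 0.25 for MT-ND4L. With DESeq2 MT-ND4L did not pass (adjusted p 0.095), which left 6 of the 7. The other mitochondria-encoded mRNAs were also higher in DU145 vehicle, from 0.114 (MT-CO1) to 0.575 (MT-CO3). All of them passed the edgeR test except MT-ATP8 (0.374, adjusted p 0.082). The higher vehicle level in DU145 was thus not particular to the ND genes.

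Among the pentamidine samples the direction was mixed. MT-ND4 (-0.33, adjusted p 5.4e-10), MT-ND4L (-0.60, 1.2e-07), MT-ND5 (-0.27, 1e-07) and MT-ND6 (-0.43, 9.7e-08) were lower in DU145, by edgeR with Benjamini-Hochberg adjustment. MT-ND1 was higher in DU145 by 0.13 (adjusted p 0.0022). MT-ND2 and MT-ND3 did not pass, with differences of -0.02 (95% interval -0.10 to 0.07) and -0.09 (-0.30 to 0.11). Of all 14560 genes tested 35.2% were lower and 36.2% higher in DU145 in this comparison, so differences in both directions were common in it. Without PC3 pentamidine sample 3 the difference of MT-ND1 was 0.08, with an adjusted p of 0.071. The other mitochondria-encoded mRNAs were lower in DU145 pentamidine, from -0.229 (MT-CO3) to -0.589 (MT-CYB). All of them passed the edgeR test except MT-ATP8 (-0.386, adjusted p 0.12). Lower treated levels in DU145 were thus not particular to the ND genes.

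The response to pentamidine differed between the lines for all 7 ND genes, with the larger loss in DU145, by edgeR's test of the interaction over the 12 samples with Benjamini-Hochberg adjustment. Of all 15226 genes tested, 10.2% had a DU145 response below the PC3 response by this rule. The other mitochondria-encoded mRNAs differed in the same direction, from -0.35 (MT-CO1) to -0.82 (MT-CYB). All of them passed this edgeR test except MT-ATP8 (-0.74, adjusted p 0.28), so the larger loss in DU145 was not particular to the ND genes. The difference of the log2 fold changes was -1.05 for MT-ND4L (SE 0.208, adjusted p 0.00045), -0.95 for MT-ND3 (SE 0.236, adjusted p 0.0042) and -0.79 for MT-ND6 (SE 0.108, adjusted p 2.9e-06). It was -0.63 for MT-ND4, -0.54 for MT-ND5, -0.45 for MT-ND1 and -0.39 for MT-ND2, with adjusted p of 1.2e-08, 1.6e-05, 2.7e-06 and 2e-05. The small subunits thus had the most negative differences and MT-ND2 the least. Without PC3 vehicle sample 1 the difference was -0.84 for MT-ND4L, -0.73 for MT-ND3 and -0.74 for MT-ND6. Those for MT-ND4 and MT-ND5 were then -0.65 and -0.62, and these differences were not tested against each other. The vehicle samples enter both the comparison of vehicle levels and this one, so the higher vehicle levels and the larger losses of DU145 are not separate evidence.

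The rest of complex I is encoded in the nucleus, and its mRNAs did not show losses of this size. Of 37 nuclear subunit genes 36 were tested (NDUFA7 had too few counts), and none changed by more than 1 on the log2 scale. In PC3 2 were lower, 2 higher and 32 did not pass an adjusted p of 0.05 (edgeR, Benjamini-Hochberg), beside 21.7% of all tested genes lower and 21.7% higher. In DU145 1 was lower, 7 higher and 28 did not pass, beside 16.8% lower and 17.2% higher. The median log2 fold change of the list was -0.02 in PC3 and 0.08 in DU145, against 0.005 and 0.008 over all tested genes. The counts rest on single samples and settings. Without PC3 vehicle sample 1, there were 10 subunits lower and 1 higher, and without PC3 vehicle sample 3 there were 5 higher. The 7 higher in DU145 became 4 without DU145 vehicle sample 3, 4 with DESeq2 or with all 12 samples in 1 fit, and 12 with library size alone.

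NDUFAB1, the acyl carrier protein of the enzyme, was lower in PC3 (-0.30, adjusted p 0.00063, edgeR), and NDUFS4, a subunit of the matrix arm, was higher there (0.30, 0.0038). NDUFS1, the largest matrix-arm subunit, was lower in DU145 (-0.16, adjusted p 0.00081). NDUFB5 (0.29, 6.6e-05), NDUFB10 (0.24, 6.9e-06) and NDUFB11 (0.24, 7.7e-05), accessory subunits of the membrane arm, were higher in DU145. NDUFA5 (-0.18, 0.046) and NDUFA1 (0.34, 0.049) made up the rest of the PC3 counts and were named after their values were seen. The 16 assembly factors, which help to build the enzyme, were all tested. In PC3 3 were lower and 2 higher, and in DU145 0 were lower and 1 higher, with list medians of -0.06 and 0.04. In PC3 FOXRED1 (-0.36, adjusted p 0.00047) and ACAD9 (-0.29, 0.0035) were lower, and NDUFAF2 (0.38, 0.0013) and TIMMDC1 (0.22, 0.021) were higher. Likewise named after their values were seen, ECSIT was lower in PC3 (-0.20, adjusted p 0.033) and NDUFAF8 higher in DU145 (0.41, adjusted p 0.00069, edgeR). TIMMDC1 helps to assemble the part of the membrane arm that holds ND1, and its change had an adjusted p of 0.051, 0.056 and 0.13 without PC3 vehicle sample 1, PC3 pentamidine sample 1 and PC3 pentamidine sample 2.

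Genes were ranked by how like the ND genes they were, leaving out the ND genes themselves and nuclear copies of mitochondrial genes. Across the 12 samples the ranked genes whose log2 level was most like the mean of the 7 standardized ND genes were mitochondria-encoded. Of 15214 genes ranked, Pearson's r was 0.9996 for MT-CO3, 0.998 for MT-ATP6, 0.998 for MT-CO2, 0.997 for MT-CO1 and 0.993 for MT-ATP8. The nearest nuclear genes were LRRC59 (0.978), B4GALT5 (0.978), UTP20 (0.974), ABCE1 (0.970) and PTRH2 (0.970). Their log2 fold changes lay between -0.20 and -0.46, so their levels moved with the ND genes over the samples but by far less. The 12 samples fall into vehicle and pentamidine samples, and r therefore mostly describes that split.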

How the data were processed

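RNA from the 12 samples was captured with Oligo(dT) and sequenced in paired ends. The submitters' processing notes name GRCh38, HISAT2 2.1.0 and DESeq 1.18.1, and the counting program and its strand setting are not given in the sources used here. The counts of reads per gene were deposited by the authors without normalization. A further table deposited as FPKM holds CPM instead, counts scaled by the authors to the library total, since 100.0% of its 384924 values give whole reads within 0.01 when scaled back. The deposited tables of fold changes and p-values from the authors' own comparisons were not used.

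The count table held 33595 entries with an identifier, which left 32077 genes after entries with the same name and counts were merged, and 44 lines of annotation text without a gene were left out. No 2 samples of a group agreed within sampling noise. Genes were tested with edgeR 4.0.16 in R 4.3.3 (quasi-likelihood test, TMM, filterByExpr with 10 as the minimum count) and p-values were adjusted by Benjamini-Hochberg over all genes tested, with each line's 6 samples for the treatment and all 12 for the interaction. SE is the log2 fold change over the root of F, and intervals are 95% from it. Ratios used counts with 0.5 added and an exact permutation test in Python 3.11.15. The fits were also run on simulated counts in which every gene was given the same spread setting. That run does not cover genes with a wider spread, such as MT-ND3 and MT-ND4L in PC3 vehicle. Percent kept is the ratio of mean CPM. Total counts were 13514195 to 15131436 per sample, and the reads carry no molecular identifiers, so counts of reads cannot be taken as counts of molecules.

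The alternatives were DESeq2 1.42.0, RLE normalization, library size alone, TMM without mitochondria-encoded genes, no filter, at least 10 counts in every sample, limma 3.58.1 on log2(CPM + 1) with a mean CPM of at least 0.5, a replicate block, all 12 samples in 1 fit, counts summed with nuclear copies, the count relative to ACTB, an added count of 1 and each sample left out. A test of the reads recovered from the CPM table and the PC3 vehicle levels without sample 1 were added after seeing the data. Genes named are the 7 ND genes, the other 6 mRNAs where they are compared, up to 3 nuclear complex I genes per line and direction, over both lists together, with the smallest adjusted p under 0.05, nuclear copies with a mean of 10 counts, and the 5 mitochondria-encoded and 5 nuclear genes most like the ND genes. MT-RNR1, MT-RNR2 and a few nuclear genes were named after their values were seen. The members and lists were chosen with earlier results of these data known. Gene positions and sequences are from the deposited table and GENCODE release 29. A further gene of the check of the lines is not reported here.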

Additional observations from a re-analysis of the deposited data

Results flagged for a closer look

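The response to pentamidine differed between DU145 and PC3, by edgeR's interaction test with an adjusted p below 0.05, for all 7 ND genes. The DU145 minus PC3 difference on the log2 scale was -0.45 for MT-ND1, -0.39 for MT-ND2, -0.95 for MT-ND3, -0.63 for MT-ND4, -1.05 for MT-ND4L, -0.54 for MT-ND5 and -0.79 for MT-ND6. All of them kept this direction and stayed below 0.05 in each of the 20 alternatives run. The same test marked 3 assembly factors among the named nuclear genes. Of all 15226 genes tested, 10.2% had a DU145 response below and 10.3% above the PC3 response by this rule. The difference was 0.34 for ACAD9 (adjusted p 0.0062), 0.36 for FOXRED1 (0.0032) and -0.49 for NDUFAF2 (0.0026). In each of the 3 the PC3 response passed the threshold of 0.05 and the DU145 response did not. The named genes were picked by their adjusted p within a line, so this pattern partly follows from that choice.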

How the results depend on the processing

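The 7 losses in each line, the 7 line differences in response, the rise of MT-ND6 against the heavy-strand genes and the rise of the ND genes against the other 6 mRNAs kept their direction and their side of the threshold in every alternative run. Over all alternatives MT-ND1 lay between -2.15 and -1.92 for PC3 and between -2.58 and -2.48 for DU145, and MT-ND3 between -4.68 and -4.21 and between -5.47 and -5.25. Relative to ACTB the losses were smaller, from -1.92 (MT-ND1) to -4.13 (MT-ND4) among the 5 that moved by more than the spread in PC3. Scaling by library size alone moved the median of all genes by at most 0.08. MT-ND4L between the vehicle samples of both lines had an adjusted p of 0.095 with DESeq2. MT-ND2 between the pentamidine samples turned from -0.018 to 0.003 with at least 10 counts in every sample, and lay between -0.054 and 0.021 with 1 sample left out. The ratio of MT-ND4 to MT-ND4L was -0.021 and lay between -0.1 and 0.114 with 1 sample left out, above 0 without PC3 vehicle sample 1 and PC3 pentamidine sample 1. The cause of these turns was not tested. Samples with the same replicate number did not deviate together (correlations of -0.073 to 0.026), and 1 of the 12 samples correlated best with its own number. The replicate block gave 648 and 285 calls in place of 658 and 290. Under it the ratio of MT-ND2 to MT-ND4L had an adjusted p of 0.0691 (exact sign-flip test over 6 pairs). The rise of MT-ND6 against the heavy-strand genes had a p of 0.0312, the smallest possible in this exact sign-flip test.
Genes called numbered 658 in PC3 and 290 in DU145 in the main test and with the reads recovered from the CPM table, against 332 and 110 with limma and 592 and 191 with DESeq2. Nuclear subunits lower in PC3 numbered 2, against 1 with DESeq2, 1 with the replicate block and 4 with all 12 samples in 1 fit. Those higher in PC3 numbered 2, against 1 with library size alone, 1 with DESeq2 and 4 with at least 10 counts in every sample. Those higher in DU145 numbered 7, against 12 with library size alone, 4 with DESeq2 and 4 with all 12 samples. The assembly factor higher in DU145 became 3 with library size alone and 0 with all 12 samples. Leaving out 1 sample gave 1 to 10 subunits lower and 1 to 5 higher in PC3, 1 to 2 lower and 4 to 10 higher in DU145, and for assembly factors 1 to 2 higher in PC3 and 0 to 1 lower in DU145. With 1 sample left out, NDUFB10, NDUFB11 and NDUFB5 in PC3 lay between -0.008 and 0.164, -0.035 and 0.205, and -0.012 and 0.129, below 0 without PC3 vehicle sample 1. FOXRED1 in DU145 turned to 0.043 with library size alone and lay between -0.041 and 0.016 with 1 sample left out. TIMMDC1 in DU145 turned to -0.002 with DESeq2 and with no filter, and lay between -0.024 and 0.019 with 1 sample left out. Counts limit the smallest genes, with 176 to 220 reads for MT-ND3 in DU145 pentamidine.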
